A study of Mus musculus with 45 samples.

Results

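In mice without a tumor, RNA from 3 subcutaneous polymer scaffolds was set against RNA from 3 lungs, the organ for which the implant is meant to stand in as a metastatic niche. These 6 libraries, columns 1, 2 and 3 for the scaffolds and 4, 5 and 6 for the lungs, were taken from the 45 of the series by their labels, and all genes with more than 10 counts over them were tested. The scaffolds were porous polycaprolactone disks placed under the skin of the upper back of female BALB/c mice that were 7 to 8 weeks old, and they were left for 2 weeks before the other mice of the study were injected in the mammary fat pad with 67NR, 4T07 or 4T1 breast carcinoma cells. The Control mice of both groups received no cell line, are of the strain Balb/c by their labels, and were sampled at the time labelled Day 14 together with spleens. Scaffold and lung share the mouse group, the sex and the day, and they differ in the tissue. The labels do not tie a scaffold to the lung of the same mouse, the explant holds every cell that had entered the pores or adhered to the disk, and neither skin without an implant nor an implant in the lung is among the groups compared here, so the site and the material cannot be told apart.

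A porous polymer under the skin draws the foreign body response: monocytes leave the blood, become macrophages that cannot digest the material, and fuse into multinucleated giant cells at its surface, while fibroblasts lay down collagen and new vessels grow into the pores. The lung is built for gas exchange, with flat alveolar type 1 cells, surfactant-producing type 2 cells, a dense capillary bed, airways lined by ciliated and secretory cells, and resident alveolar macrophages. Both are tissues in which circulating tumor cells can lodge, which is why the series places them side by side.

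The 3 scaffold libraries held 4767440 to 6352761 counts and the 3 lung libraries 5545315 to 6178621, with a count in 22490 to 23621 and 22933 to 23370 genes. Levels are given as CPM, a gene's counts scaled to a library total of 1000000. They come from tags at the 3′ end of transcripts, so that they do not grow with transcript length. Counts of 3 or fewer in every library of a group were treated as a floor, 3 counts being worth 0.472 to 0.629 CPM, and floors cover counting error only. Mitochondrial genes took 8.98% to 11.6% of the counts in scaffolds and 6.48% to 8.09% in lungs. The labels name no animal, and p-values measure the spread between these samples alone.

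Of 19825 genes tested with edgeR's quasi-likelihood test, 6919 (34.9%) were called, meaning a Benjamini-Hochberg adjusted p under 0.10 and a fold above 2. Scaffolds were higher for 3120 genes (15.7%) and lower for 3799 (19.2%), and the fitted log2 difference of scaffold over lung had a median of -0.0020 over all genes. The counts of list members called, given below, are to be read beside these shares. More than 10-fold separated the tissues for 600 genes higher and 1115 lower in scaffold. The genes called higher made up 30.6% of all CPM in scaffolds and 8.59% in lungs, and those called lower 3.62% and 25.8%. In 11613 genes (58.6%) the 3 scaffold values and the 3 lung values did not overlap. With library totals in place of the TMM scaling, all log2 differences shifted by about -0.23 and 2457 of 7000 calls were higher in scaffold, so the split between the directions depends on the scaling. In bulk tissue, fewer cells of a type and less RNA per cell cannot be told apart. Which cells made a transcript was not tested for any gene, also where a clause below names other cells that can make it. The plot of all genes shows giant cell, macrophage and most matrix genes above 0 and nearly all epithelial genes below it across the whole range of expression.

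**Figure D1:**
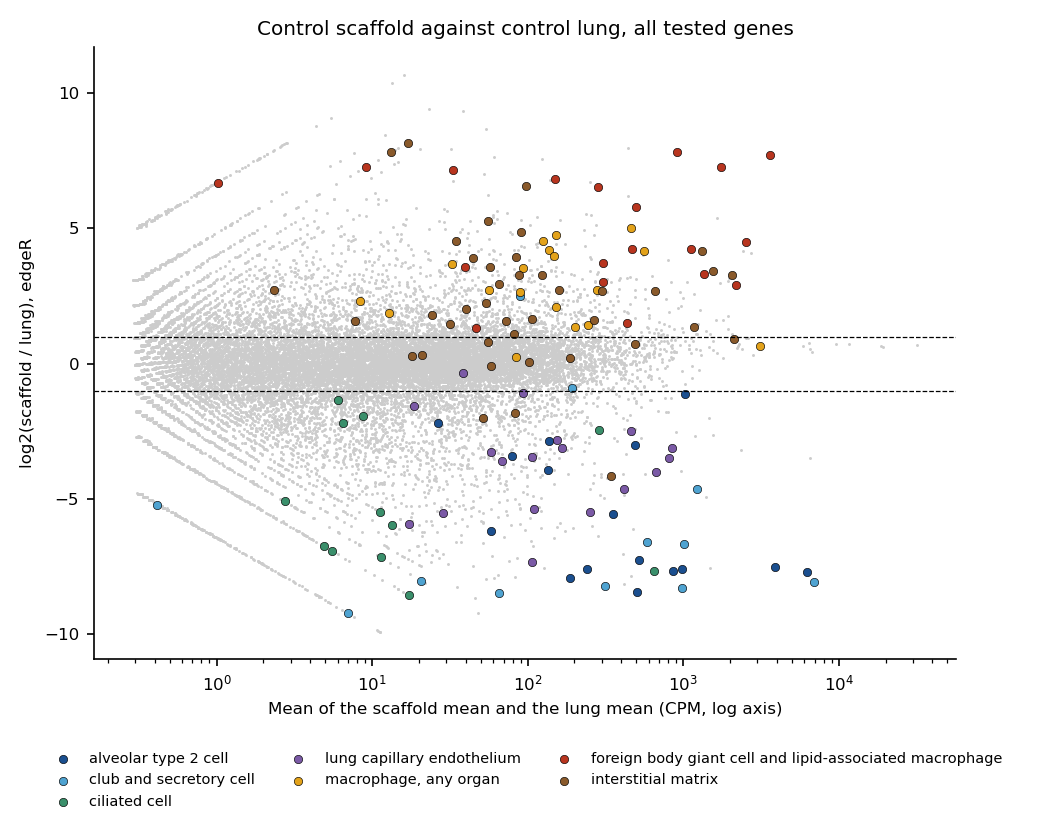
Log2 difference of control scaffold over control lung (vertical axis, edgeR) against the mean of the 2 tissue means in CPM (log axis) for 19825 tested genes, with dashed lines at a 2-fold difference and the members of 7 gene lists in color. Foreign body giant cell and lipid-associated macrophage genes (red) all lie above 0, alveolar type 2 cell genes (dark blue) all lie below it, and the outermost points at low CPM are fitted values of genes at the floor in one tissue, which depend on the prior count.

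Genes of fused, lipid-laden macrophages were among the largest differences in favor of the scaffold. Gpnmb, a glycoprotein of lysosome-rich macrophages, was at 6407, 7453 and 7821 CPM in the 3 scaffolds and 40.1, 47.4 and 33.8 CPM in the 3 lungs. Every scaffold lay far above every lung, 209.6-fold on the fitted scale (log2 difference 7.71 ± 0.24 SE, adjusted p = 1.23e-09), and the gene was among the 12 most abundant of the scaffold. Mmp12, the macrophage elastase, was at 1428, 1834 and 2171 CPM in scaffolds and 13.2, 8.11 and 6.31 CPM in lungs. The groups did not overlap and the fitted fold was 229 (log2 7.84 ± 0.30 SE, adjusted p = 2.5e-09). Ctsk, the collagen-degrading cathepsin of osteoclasts and giant cells, was at 3477, 3324 and 3632 CPM against 24.9, 37.9 and 17.5 CPM. The scaffold values lay close together and 153-fold above the lung (log2 7.26 ± 0.30 SE, adjusted p = 3.47e-09).

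Genes of cell fusion were among them. Dcstamp, the transmembrane protein required for macrophages and osteoclasts to fuse, was at 51.6, 65.6 and 81.1 CPM in scaffolds and 0.872, 0.541 and 0.162 CPM in lungs. Its values in scaffold lay 144-fold above those in lung (log2 7.17 ± 0.31 SE, adjusted p = 4.41e-09). Its partner Ocstamp was at 9.44, 17.7 and 27.2 CPM in scaffolds against 0, 0.180 and 0.162 CPM in lungs, where no library held more than 3 counts. The scaffold mean was at least 35.1-fold higher than the floor. Trem2, a lipid receptor of foamy macrophages, was at 338, 273 and 281 CPM against 2.61, 3.79 and 2.91 CPM, 113-fold apart with no overlap. Lgals3, a lectin of phagocytes, was at 4560.3, 4802 and 4993 CPM against 285, 281 and 187 CPM, 22.4-fold apart, and Lpl, which releases fatty acids from lipoproteins, was 7.54-fold higher. All 19 tested genes on the list of foreign body giant cell and lipid-associated macrophage genes were higher in scaffold (15.7% of all genes were), with a median log2 difference of 4.48 (4.24 with genes at the floor set to their bound) beside -0.0020 over all genes. The members summed to 27344, 31415 and 32048 CPM in scaffolds and 1886, 2035 and 1595 CPM in lungs.

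Markers that macrophages carry in any organ were mostly higher too. Of 18 tested, 16 were higher in scaffold and 0 lower, with a median log2 difference of 2.72 and summed levels of 7911 to 9484 CPM in scaffolds and 3021 to 3795 CPM in lungs. Cd68, a lysosomal membrane protein of phagocytes, was at 817, 877 and 972 CPM in scaffolds and 37.8, 33.2 and 24.9 CPM in lungs. The groups stood 32.6-fold apart without overlap. Msr1, a scavenger receptor, was 26.9-fold higher, and the complement component genes C1qa, C1qb and C1qc were 17.9-fold, 18.2-fold and 23.2-fold higher. Lyz2, lysozyme of myeloid cells, which type 2 cells of the lung also make, was at 3274, 4253 and 3146 CPM against 2711, 3052 and 2290.5 CPM, a fitted fold of 1.56 that did not pass the fold threshold. The other member not called, named here because it is the only other one, was Mertk at a log2 difference of 0.24.

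Alveolar macrophage genes differed in both directions. Of 14 tested genes of the alveolar macrophage list, 8 were lower in scaffold and 4 higher, with a median log2 difference of -2.62. The list's summed level was higher in scaffold, 1967 to 2480.2 CPM against 779 to 1057 CPM. Ear1, a ribonuclease of the eosinophil family made by alveolar macrophages, was at 0, 0 and 0.157 CPM in scaffolds and 34.7, 37.1 and 22.8 CPM in lungs. Since no scaffold library passed 3 counts, the lung mean was at least 60.0-fold higher. Fabp1, a fatty acid binding protein, was at 0, 0 and 0.630 CPM against 38.4, 57.9 and 22.7 CPM. It was detected in scaffold library 3 only, so that its log2 difference of -7.09 ± 0.60 (SE) rests on that library, without which scaffold held no count. The members that went the other way were Itgax (15.2-fold), Atp6v0d2 (18.7-fold), Fabp4 (6.20-fold) and Mrc1, which is given in the next paragraph. Itgax, Atp6v0d2 and Fabp4 encode an integrin, a proton pump subunit of fusing macrophages and a lipid carrier that other macrophages and adipocytes express too.

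Genes tied to alternative activation were more often higher than lower in scaffold. Of 14 tested, 8 were higher and 1 lower in scaffold, with a median of 1.40 (1.11 with bounds). Arg1 was among the 5 not called. Ccl8, a monocyte and eosinophil attractant, was at 1085, 725 and 814 CPM in scaffolds and 3.84, 5.23 and 3.40 CPM in lungs. The 249-fold difference (log2 7.96 ± 0.28 SE, adjusted p = 1.4e-09) was one of the 12 largest. Clec10a, a galactose-binding lectin, was at 80.3, 82.7 and 80.8 CPM against 4.88, 8.30 and 9.23 CPM, 12.8-fold apart. Mrc1, the mannose receptor, was 2.71-fold higher, and Ccl24, an eosinophil attractant, 14.3-fold higher (log2 3.83, 4.47 without lung library 5). Chil3, a chitinase-like lectin, was the member that was lower, at 2.31, 2.22 and 1.10 CPM in scaffolds against 102, 125 and 75.4 CPM in lungs, 46.2-fold apart.

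Lysosomal genes, which serve digestion inside phagocytes, were higher in scaffold. Of 38 tested lysosome genes, 31 were higher in scaffold and 0 lower (edgeR), with a median log2 difference of 2.14, and the summed level was 33333, 37858 and 37164 CPM in scaffolds against 6647, 6816 and 5760.0 CPM in lungs. Ctsl, a cysteine protease, was at 4506, 5585 and 5198 CPM in scaffolds and 380.0, 367 and 315 CPM in lungs. Every scaffold lay above every lung, 16.9-fold on the fitted scale (log2 4.08 ± 0.19 SE, adjusted p = 7.02e-09). Ctsb was at 3787, 4834 and 5031 CPM against 299, 301 and 283 CPM, 18.1-fold apart. Ctsd, an aspartic protease, was at 3383, 3781 and 3292 CPM against 479, 476 and 419 CPM, 8.96-fold apart. Of the transcription factors of the TFEB family on the list, Mitf was higher (log2 2.33), and Tfeb (0.43) and Tfe3 (0.90) were not called. These 3 were named after their values were seen.

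Lysosomal promoters often carry the palindrome CACGTG, the core of the element that factors of the TFEB family read, and 1 window per gene, the one nearest the start site, shows it at the lysosome genes that hold it. RefSeq promoters of the build GRCm38.p6, 250 bases before to 50 after the start site, were at hand for 30 of 38 lysosome genes and 12955 of 19825 tested genes. The motif was present in 10 of the 30 lysosome promoters (33.3%), in 10.7% of the promoters of tested genes, in 11% of those called higher in scaffold and in 7.89% of those called lower. The longer TCACGTGA, which contains it, was present in 7 of 30 (23.3%) and in 1.9% of tested genes. CACGTG reads the same on both strands, so 1 search covers both. It was in 0 of the 11 giant cell genes with a promoter entry. The windows have 12 bases on either side of the motif, which is in capitals, 5′ to 3′ on the strand of the gene. Ctsa, Ctsd, Ctsl, Gla, Glb1, Atp6v1a, Atp6v0d1 and Cln3 were higher in scaffold, and Lamp1 and Mcoln1, whose log2 differences were 0.82 and 0.95, were not called. These genes are named for the motif.
Ctsa (chr2:164833766-164833795, + strand): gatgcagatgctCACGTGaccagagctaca
Ctsd (chr7:142387908-142387937, - strand): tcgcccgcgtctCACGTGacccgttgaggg
Ctsl (chr13:64370739-64370768, - strand): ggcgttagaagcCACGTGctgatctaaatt
Gla (chrX:134601182-134601211, - strand): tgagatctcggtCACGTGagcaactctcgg
Glb1 (chr9:114401018-114401047, + strand): ctgcttctgagtCACGTGgcctacagaggc
Atp6v1a (chr16:44139373-44139402, - strand): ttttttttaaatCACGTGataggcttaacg
Atp6v0d1 (chr8:105566050-105566079, - strand): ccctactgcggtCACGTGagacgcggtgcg
Cln3 (chr7:126583340-126583369, - strand): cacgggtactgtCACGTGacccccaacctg
Lamp1 (chr8:13159134-13159163, + strand): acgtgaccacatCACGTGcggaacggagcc
Mcoln1 (chr8:3500462-3500491, + strand): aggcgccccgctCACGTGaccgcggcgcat
The 250 bases before the start of Ctsd and of Gpnmb are shown as 1 lysosome gene with the motif and as the most abundant giant cell gene, which has none in this window.
Ctsd (chr7:142387828-142388077, - strand): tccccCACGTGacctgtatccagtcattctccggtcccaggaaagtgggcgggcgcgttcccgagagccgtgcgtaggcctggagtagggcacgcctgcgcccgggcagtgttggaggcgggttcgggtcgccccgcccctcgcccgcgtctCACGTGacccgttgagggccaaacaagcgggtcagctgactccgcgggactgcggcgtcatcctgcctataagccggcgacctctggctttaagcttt
Gpnmb (chr6:49036268-49036517, + strand): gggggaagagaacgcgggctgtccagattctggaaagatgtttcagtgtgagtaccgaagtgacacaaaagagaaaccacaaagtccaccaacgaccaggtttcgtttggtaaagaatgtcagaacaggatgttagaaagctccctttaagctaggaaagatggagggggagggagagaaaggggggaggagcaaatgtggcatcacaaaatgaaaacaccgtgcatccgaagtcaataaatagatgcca

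**Figure D2:**
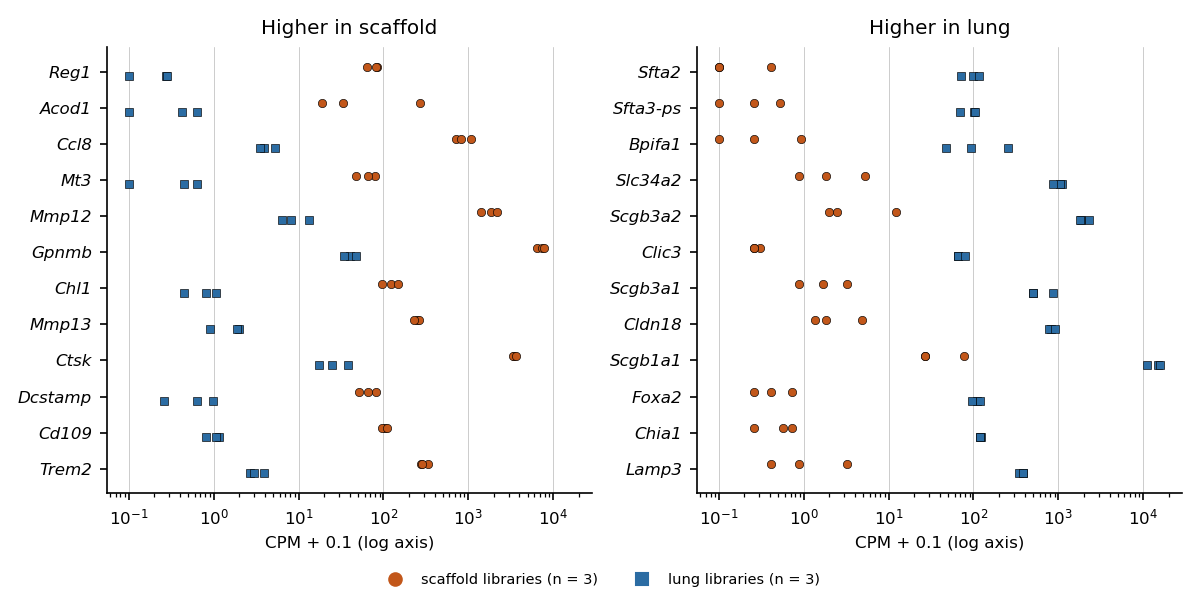
CPM of the 12 genes with the largest log2 difference in each direction whose groups do not overlap and whose higher group averages at least 50 CPM, on a log axis after adding 0.1, with 1 point per library (circles scaffold, squares lung, n = 3 each). Gpnmb, Ctsk and Mmp12 lie above every lung point by a wide gap, and in the right panel the scaffold circle farthest to the right belongs to library 1 for Scgb1a1, Scgb3a2 and Slc34a2.

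Collagen and its proteases were high in scaffold. Of 40 tested genes of the interstitial matrix, 29 were higher and 3 lower, with a median log2 difference of 2.12, and the summed level was 16579, 18787 and 20420.1 CPM in scaffolds and 5918, 5241 and 6357 CPM in lungs. Col1a2, a chain of type I collagen, was at 2799, 3945 and 4294 CPM in scaffolds and 420.1, 421 and 487 CPM in lungs. The groups were 9.72-fold apart (log2 3.28 ± 0.19 SE, adjusted p = 3.69e-08), and Col3a1 of type III collagen was 10.7-fold higher. Thbs2, a thrombospondin of the foreign body capsule, was at 225, 168 and 186 CPM against 2.27, 2.70 and 2.27 CPM, 94.0-fold apart. Thbs4 and Col11a1 were at the floor in every lung library, and their scaffold means were at least 65.3-fold and 51.4-fold higher. The members that were lower were Mfap4 at 31.0, 32.9 and 28.5 CPM against 669, 503 and 791 CPM, 18.0-fold, Eln 4.09-fold and Fbln5 3.56-fold. All 3 are elastic fiber genes, but other elastic fiber genes on the list, among them Fbn1 and Mfap5, were called higher in scaffold. Sparc, at 3211, 2297 and 2344 CPM against 1645, 1351 and 1908 CPM, had a fitted fold of 1.90 and was not called, and it passed when scaffold library 2 or 3 or lung library 6 was left out (log2 1.04, 1.04 and 1.03).

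Among 32 matrix proteases and inhibitors, 20 were higher and 5 lower in scaffold, with a median of 2.50 (2.34 with bounds). Mmp13, an interstitial collagenase, was at 248, 265 and 228 CPM in scaffolds and 1.92, 1.80 and 0.809 CPM in lungs. The fitted fold was 192 (log2 7.59 ± 0.25 SE, adjusted p = 1.23e-09) without overlap. Mmp9, a gelatinase of osteoclasts and neutrophils, was at 304, 628 and 748 CPM against 6.28, 8.66 and 6.15 CPM, 92.6-fold apart with scaffold library 1 the lowest of its group. Mmp14, the membrane-bound collagenase, was 8.14-fold higher. On the lung side stood the membrane protease Mmp15 (11.1-fold), the inhibitor Timp3 (3.20-fold) and Adamts9 (2.78-fold).

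Basement membrane genes, which anchor epithelium and vessels, went the other way: 3 were higher and 11 lower of 23 tested, with a median of -0.45. Col4a4, a type IV collagen chain of alveolar basement membrane, was at 5.66, 3.17 and 5.04 CPM in scaffolds and 214, 226 and 275 CPM in lungs, 44.2-fold apart. Npnt, nephronectin, was 83.0-fold and the epithelial laminin chain Lama3 39.0-fold lower. The chains found around vessels everywhere, Col4a1 and Col4a2, were at 215, 464 and 440.3 and 107, 137 and 142 CPM in scaffolds against 588, 531 and 579.6 and 147, 164 and 178 CPM in lungs and were not called.

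Fibroblast genes separated the sites. Of 15 genes of the lung fibroblast list, 14 were lower in scaffold and 0 higher, with a median of -6.12 (-5.98 with bounds) and summed levels of 119.7 to 138 CPM against 5907 to 7117 CPM. Limch1 was at 11.3, 10.6 and 12.6 CPM in scaffolds and 965, 892 and 966 CPM in lungs, 69.5-fold apart. Inmt, a methyltransferase of alveolar fibroblasts, was at 28.7, 6.33 and 5.51 CPM against 3094, 2678 and 3107 CPM, a log2 difference of -7.56 ± 0.57 (SE) that became -8.77 without scaffold library 1. Of 16 genes of the subcutaneous fibroblast list, 9 were higher and 2 lower, with a median of 1.87. Their summed level went the other way, 1948 to 2153 CPM in scaffolds against 2549 to 2744 CPM in lungs. Fap, a surface protease of activated fibroblasts, was at 21.8, 28.7 and 32.9 CPM in scaffolds against 0.872, 1.08 and 1.46 CPM in lungs, 28.0-fold apart, Sfrp4, a secreted Wnt modulator, was 23.2-fold higher, and Sfrp2 had a log2 difference of 5.68 (7.12 without lung library 6). The members that were lower, Ly6a (3.42-fold) and Dpp4 (5.67-fold), are surface proteins that lung endothelium or epithelium can carry too, and their source here was not tested.

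Of 28 transcription factors of organ position, 11 were higher and 16 lower in scaffold, with a median of -3.02 (-2.65 with bounds). The groups did not overlap in any gene called, nor in 58.6% of all genes tested. Nkx2-1, the master factor of lung epithelium, had no count in any scaffold library and 20.7, 21.3 and 23.5 CPM in lungs. The lung mean was at least 41.5-fold above the floor. Foxa2, a factor of endodermal epithelium, was at 0.629, 0.158 and 0.315 CPM against 110.0, 94.9 and 119 CPM, at least 205-fold higher in lung. Foxf1, a factor of lung mesenchyme and capillaries, was at 1.68, 2.53 and 1.89 CPM against 134, 156 and 171 CPM, 63.0-fold apart (log2 -5.98 ± 0.20 SE, adjusted p = 1.25e-09), and Tbx4, which marks lung mesenchyme, had a log2 difference of -7.47 (-8.77 without scaffold library 1). In the other direction, Tbx15, a factor of dermal and adipose mesenchyme, was at 13.8, 19.6 and 20.3 CPM in scaffolds and 0.349, 0.361 and 0.647 CPM in lungs, 43.9-fold apart. Tbx18 and Twist1 were at the floor in lung and at least 19.4-fold and 12.0-fold higher in scaffold, and Prrx1, of limb and body wall mesenchyme, was 3.85-fold higher.

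Hox genes, whose expression in fibroblasts follows the body axis, went both ways too. Of 39 listed, 23 could be tested, and 10 were higher and 6 lower in scaffold, with a median of 0.22 (0.13 with bounds). Hoxa5, needed for lung development, was at 4.40, 3.33 and 6.93 CPM in scaffolds and 135, 128 and 165 CPM in lungs, 24.7-fold apart, and Hoxb5 was 10.7-fold lower. Hoxd8 was at 7.13, 16.9 and 17.5 CPM against 0.697, 0.721 and 0.647 CPM, 23.0-fold higher in scaffold, and Hoxd4 was 24.0-fold higher. Hoxc6 was at 5.03, 9.50 and 12.6 CPM against 0.174, 0 and 0.162 CPM and at least 17.5-fold higher. The groups did not overlap for any of these named genes, nor for 58.6% of all genes tested.

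Lung epithelial genes made up most of the largest differences in the other direction. All 16 alveolar type 2 cell genes were lower in scaffold, with a median log2 difference of -6.74 and summed levels of 1018, 805 and 745 CPM in scaffolds and 32779.5, 29768 and 29015 CPM in lungs. Sftpc, the surfactant protein that defines type 2 cells, was at 103, 22.2 and 22.2 CPM in scaffolds and 13286, 12106 and 11741 CPM in lungs. Scaffold library 1 held several times more than the other scaffolds, and the log2 difference of -7.72 ± 0.64 (SE, adjusted p = 8.16e-07) became -8.93 without it. Slc34a2, a phosphate transporter of type 2 cells, was at 5.24, 0.792 and 1.73 CPM against 1111, 1039 and 870.3 CPM. Its log2 difference of -8.46 ± 0.42 (SE, adjusted p = 1.16e-08) became -9.43 without library 1. Sfta2, a surfactant-associated protein, was at 0, 0.317 and 0 CPM against 99.0, 116 and 70.6 CPM and at least 181-fold higher in lung. Of 14 type 1 cell genes 13 were lower, with a median of -5.69, among them Ager, a receptor on the type 1 surface, at 7.34, 1.90 and 1.42 CPM against 885, 759.7 and 1108 CPM (log2 -7.86, -8.90 without library 1), and Emp2, 31.0-fold. The member not called was Pdpn, a membrane protein of type 1 cells that fibroblasts and lymphatics carry too, at a log2 difference of 0.83, named after its value was seen.

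Airway genes were lower as well. Scgb1a1, the secretoglobin of club cells, was at 77.8, 26.6 and 26.4 CPM in scaffolds and 11150.2, 14922 and 15706 CPM in lungs. The log2 difference was -8.06 ± 0.50 (SE, adjusted p = 6.4e-08), and -8.84 without scaffold library 1. Muc5b, an airway mucin, had no count in scaffolds and 12.0, 13.9 and 16.0 CPM in lungs, at least 26.6-fold higher in lung. Of 12 club and secretory cell genes, 10 were lower and 1 higher, with a median of -7.35, or -6.44 with genes at the floor set to their bound. The one that was higher was Reg3g, a bactericidal lectin that inflamed epithelium makes, at 142, 173 and 128 CPM in scaffolds and 15.5, 35.2 and 42.2 CPM in lungs, 5.63-fold apart. All 12 ciliated cell genes were lower in scaffold, with a median of -5.72 (-4.29 with bounds). Sec14l3 was at 10.5, 2.53 and 3.62 CPM against 1118, 1245 and 1511 CPM (log2 -7.68, -8.51 without library 1), and Ccdc153, of motile cilia, was at least 65.4-fold higher in lung. Mesothelium, the cover of the lung, had 6 of 7 genes lower (median -5.24, -3.34 with bounds), led in level by Gpm6a at 2.31, 1.90 and 2.05 CPM against 138, 129 and 112 CPM, 51.7-fold apart.

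Genes of lung epithelium had low counts in the scaffold libraries. Among 19 genes, mostly epithelial, with at least 500 CPM in lung that were more than 50-fold lower in scaffold, chosen after their values were seen, scaffold library 1 had the highest scaffold value for 17, and the median level as a share of the lung mean was 0.856% in library 1, 0.191% in library 2 and 0.253% in library 3. Sftpc averaged 2.05 CPM and Scgb1a1 0.837 CPM in 3 control spleens. The source of these counts was not tested.

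Vascular genes followed the lung. All but 1 of 15 genes of endothelium in any organ were lower in scaffold (median -2.68), and 17 of 18 genes of lung capillaries (median -3.47). Kdr, the main VEGF receptor, was at 95.9, 136 and 111 CPM in scaffolds and 1522, 1407 and 1564 CPM in lungs. The groups were 11.2-fold apart without overlap (log2 -3.48 ± 0.17 SE, adjusted p = 1.04e-08). Cdh5, the cadherin of endothelial junctions, was at 28.9, 46.6 and 38.7 CPM against 425, 437 and 415 CPM, 9.52-fold apart. Car4, a carbonic anhydrase of alveolar capillaries, was at 1.68, 0.792 and 0.944 CPM against 204, 194 and 243 CPM, 163-fold apart, a larger difference than that of Cdh5, and the 2 differences were not tested against each other. The hypoxia-linked factor Epas1 was 8.82-fold lower, Lyve1 of lymphatic vessels 4.15-fold lower, and 3 of 5 lymphatic genes were lower in all. Vegfa, the ligand of Kdr, was at 5.03, 5.07 and 7.56 CPM against 178, 187 and 263 CPM, 30.1-fold lower in scaffold.

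Of 18 mural cell genes (smooth muscle, pericytes and myofibroblasts), 2 were higher and 7 lower in scaffold, beside 15.7% and 19.2% of all genes tested, with a median of -0.76. Rgs5, a pericyte gene, was at 309.8, 262 and 258 CPM in scaffolds and 24.2, 30.5 and 28.2 CPM in lungs, 11.8-fold higher in scaffold. Higd1b, a pericyte gene of the lung, was at 8.39, 4.28 and 6.77 CPM against 292, 235 and 190.5 CPM, 31.9-fold lower. Both are pericyte markers, and they differed in opposite directions. Cthrc1, a secreted protein of wound fibroblasts, was 2.97-fold higher and Mylk, the kinase of smooth muscle contraction, 6.81-fold lower.

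**Figure D3:**
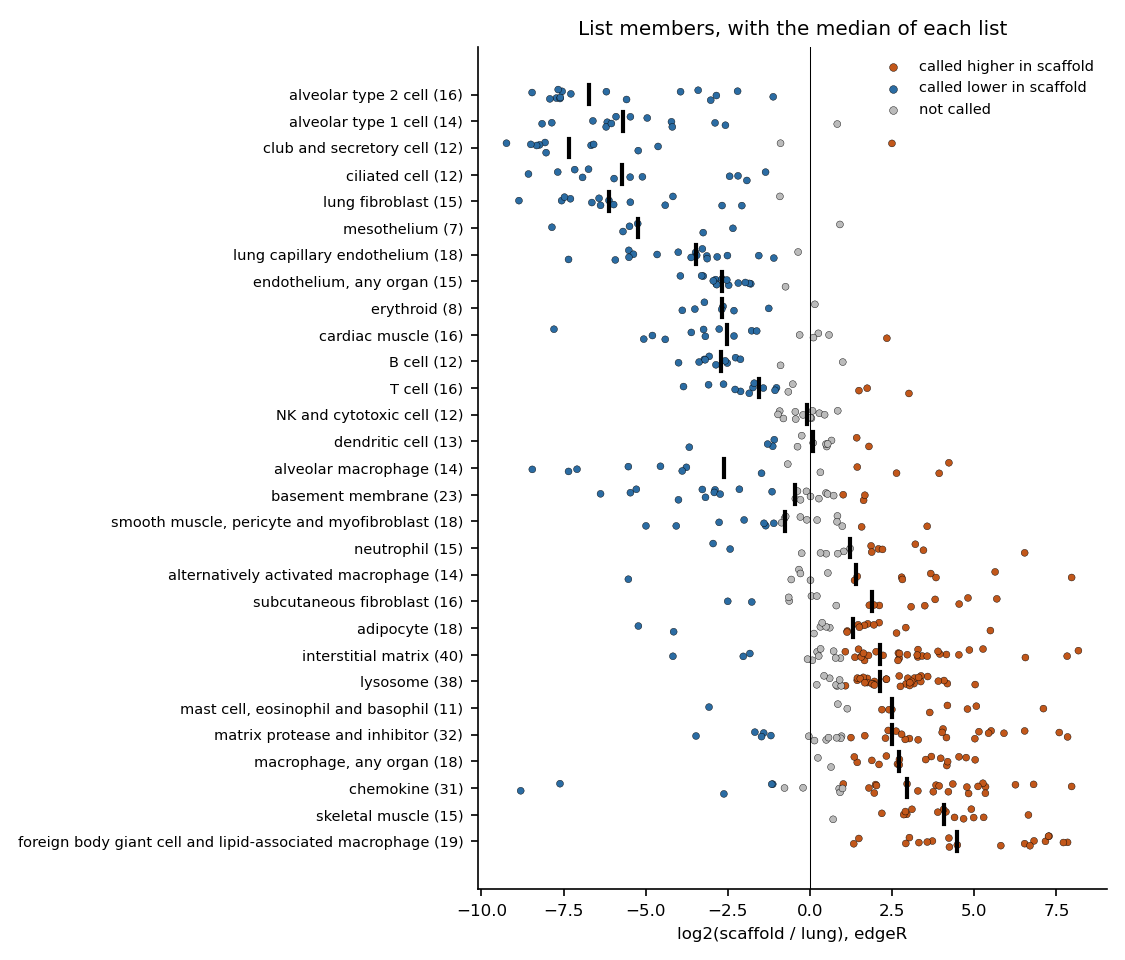
Log2 difference of control scaffold over control lung (edgeR, horizontal axis) for each tested member of 29 gene lists, with the number tested in brackets, the list median as a black bar, and points colored by call (orange higher in scaffold, blue lower, grey not called). The 19 giant cell and lipid-associated macrophage genes are all orange, the 16 alveolar type 2 cell genes are all blue, and lists such as basement membrane and alveolar macrophage hold both colors.

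Signals that draw leukocytes were mostly higher in scaffold. Of 31 tested chemokines, 21 were higher and 5 lower, with a median log2 difference of 2.95 (2.02 with genes at the floor set to their bound). Cxcl2, a neutrophil attractant, was at 78.9, 697 and 53.4 CPM in scaffolds and 1.22, 4.15 and 3.24 CPM in lungs. Scaffold library 2 was the highest by far, and the log2 difference of 6.80 ± 1.00 (SE, adjusted p = 0.000117) became 4.79 without it. Cxcl5 was at 50.6, 239 and 39.2 CPM against 1.39, 1.80 and 1.78 CPM (log2 6.25, 5.00 without library 2). The lung had its own chemokine, Cxcl15, made by airway and alveolar epithelium, at 16.8, 3.48 and 5.98 CPM in scaffolds and 2061, 2021 and 1796 CPM in lungs (log2 -7.61, -8.49 without scaffold library 1). Cxcl17, of mucosal surfaces, had no count in scaffolds and 7.67, 10.3 and 13.1 CPM in lungs, and Cx3cl1, the membrane-tethered chemokine of endothelium, was 6.15-fold lower. Of 20 chemokine receptors 8 were higher and 3 lower: Ccr1 of myeloid cells was 7.42-fold higher, Cx3cr1 2.81-fold, and Ccr2, the monocyte receptor, 2.06-fold, a call that was lost without scaffold library 1 or lung library 5 (log2 0.97 and 0.97). The lymphocyte receptor Ccr6 was 7.29-fold lower and the scavenging receptors Ackr2 and Ackr4 12.2-fold and 5.70-fold lower.

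Complement genes were higher in 15 of 21 and lower in 4, with a median of 1.46 (1.37 with bounds). C3ar1, the receptor of the C3a fragment, was at 529, 438 and 417 CPM in scaffolds and 11.3, 11.2 and 12.5 CPM in lungs, 46.7-fold apart without overlap. C3 itself was 2.58-fold higher. Genes of the membrane attack complex were on the lung side: Hc, which encodes C5, was at 10.9, 12.8 and 18.9 CPM against 288, 249.8 and 233 CPM, 15.4-fold lower in scaffold, C6 was 9.74-fold lower, and C7 had no count in scaffolds and 7.32, 5.95 and 12.5 CPM in lungs, at least 16.3-fold higher.

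Acute inflammatory genes separated 1 scaffold from the other 2. Acod1, which makes itaconate in activated macrophages, was at 32.9, 271 and 18.9 CPM in scaffolds and 0, 0.541 and 0.324 CPM in lungs. Lung was at the floor, so that scaffold was at least 208-fold higher, or 50.2-fold without scaffold library 2, which held most of the counts. Il1b, the inflammasome cytokine, was at 90.4, 618 and 54.6 CPM against 19.4, 33.4 and 28.8 CPM (log2 3.45, 1.69 without library 2). S100a8 and S100a9, the calprotectin subunits of neutrophils, were at 274, 843 and 161 and 141, 811 and 83.0 CPM in scaffolds against 124, 127 and 103 and 126, 109 and 97.6 CPM in lungs. Without library 2 the log2 difference of S100a8 was 1.16 in place of 2.08, and that of S100a9 0.29 in place of 1.86, no longer called. Of 15 neutrophil genes 7 were higher and 2 lower (median 1.22), or 3 and 3 without library 2. The 2 that were lower were Lcn2 (7.73-fold), a siderophore-binding protein that lung epithelium makes too, and Ltf (5.40-fold), lactoferrin. The list summed to 921, 3342 and 1124 CPM in scaffolds and 553, 545 and 521 CPM in lungs.

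Reg1, a secreted lectin of the regenerating-islet family, was at 63.1, 84.6 and 82.0 CPM in scaffolds with no lung library above 3 counts, at least 148-fold higher in scaffold. Mt3, a metallothionein, was at 78.9, 48.0 and 65.8 CPM in scaffolds and likewise at the floor in lung, at least 124-fold higher. Chl1, a neural adhesion molecule, was at 122, 147 and 96.0 CPM against 0.349, 0.721 and 0.971 CPM, 202-fold apart, and Cd109, a membrane protein that binds TGF-beta, 131-fold apart. Among 42 growth factors and antagonists, 10 were higher and 17 lower, with a median of -0.41. Igf1 was at 352, 345 and 299 CPM against 54.7, 68.3 and 62.0 CPM, 6.35-fold higher in scaffold, and Inhba, the activin A subunit, was 9.53-fold higher together with its antagonist Fst (7.82-fold). The BMP antagonist Grem1 was 20.4-fold higher, while Bmp4 was at 5.66, 1.74 and 3.94 CPM against 149, 133 and 244 CPM, 40.4-fold lower, and Bmp5 and Bmp6 were at the floor in scaffold.

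Lymphocyte genes were lower in scaffold for the B lineage and divided for T cells. Of 12 B cell genes 10 were lower and 0 higher (median -2.72, -2.69 with bounds), with summed levels of 124 to 140.1 CPM in scaffolds, 408 to 514 CPM in lungs and 6396 to 7308 CPM in spleens. Ms4a1, which encodes CD20, was at 4.61, 4.12 and 4.88 CPM in scaffolds and 56.1, 49.2 and 43.7 CPM in lungs, 9.33-fold apart. Immunoglobulin and plasma cell genes were lower in 4 and higher in 1 of 13, beside 19.2% and 15.7% of all genes. Igha of mucosal antibody was 2.81-fold lower. Of 16 T cell genes 11 were lower and 3 higher (median -1.56). Trbc2, a T cell receptor constant chain, was at 11.1, 8.08 and 7.24 CPM against 34.7, 36.2 and 40.3 CPM, 3.60-fold lower, and the naive T cell factor Tcf7 was 4.86-fold lower. Il7r, the interleukin 7 receptor, went the other way at 627, 556 and 615 CPM in scaffolds and 93.4, 72.3 and 96.9 CPM in lungs, 8.06-fold higher.

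Of 12 NK and cytotoxic cell genes none was called in either direction by edgeR or DESeq2, 3 had an unadjusted p under 0.05, and the median was -0.10. Without scaffold library 1 or 3 or lung library 6, 1, 2 and 2 were called, and 3 with library totals. Gzma, a granzyme, was at 40.1, 41.2 and 29.9 CPM in scaffolds and 98.7, 90.5 and 58.6 CPM in lungs, a log2 difference of -0.92 that passed the fold threshold without scaffold library 1 or lung library 6 (-1.02 and -1.14). Dendritic cell genes were higher in 2 and lower in 4 of 13 (median 0.10), beside 15.7% and 19.2% of all genes. Clec9a, a marker of the cross-presenting subset, was at 4.20, 2.22 and 2.36 CPM against 34.3, 39.7 and 55.0 CPM, 12.8-fold lower. Xcr1, another marker of that subset, was not called. Without lung library 5, 3 dendritic cell genes were called in place of 6. Class II presentation genes were higher in 2 and lower in 3 of 11, beside the same shares of all genes. H2-Aa was at 320.3, 318 and 297 CPM against 275, 217 and 396 CPM with overlapping groups. The 2 that were higher, Ctss (7.86-fold) and Ifi30 (5.07-fold), are lysosomal enzymes that process antigen.

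Genes of mast cells, eosinophils and basophils, at low levels, were mostly higher in scaffold. Of 11 tested, 8 were higher and 1 lower, with a median of 2.49 (2.40 with bounds). The list's summed level overlapped between the tissues, at 149, 101 and 133 CPM in scaffolds and 87.0, 103 and 121 CPM in lungs. Tpsab1, a tryptase of connective tissue mast cells, was at 31.3, 15.7 and 21.3 CPM in scaffolds and 0, 0.180 and 0.324 CPM in lungs. Lung was at the floor, and scaffold was at least 44.0-fold higher. Cpa3, the mast cell carboxypeptidase, was at 23.9, 22.5 and 31.2 CPM against 2.27, 2.89 and 2.10 CPM, 12.5-fold higher. The member that was lower was Kit (8.42-fold), the stem cell factor receptor, which lung endothelium can express too.

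Genes of tissues that lie next to each site were measured as well. Of 18 adipocyte genes 11 were higher and 2 lower (median 1.30, 1.13 with bounds), and the list summed to 3691, 5220.3 and 5656 CPM in scaffolds and 827, 1210.2 and 868 CPM in lungs, with Lpl and Fabp4, which macrophages share, as its most abundant members. Cfd, the adipocyte complement factor D, was at 299, 233 and 425 CPM against 72.9, 191 and 144 CPM, 2.76-fold higher. Skeletal muscle genes were high in scaffold libraries 2 and 3 and low in library 1. Acta1, muscle actin, was at 0.420, 114 and 104 CPM in scaffolds and 4.88, 1.26 and 1.78 CPM in lungs. The list was called higher in 14 of 15 (median 4.06, 3.89 with bounds), but scaffold and lung values were apart without overlap in only 3, since library 1 summed to 25.6 CPM beside 16.5 to 43.1 CPM in lungs, and the fitted values moved with lung library 4 (Acta1 log2 4.98, 5.77 without it). Cardiac genes were lower in 11 and higher in 1 of 16 (median -2.54, -2.08 with bounds). Myl7, the atrial myosin light chain, was at 0, 0.158 and 0.157 CPM in scaffolds and 36.1, 31.7 and 36.6 CPM in lungs, at least 66.2-fold higher in lung. Epidermal and hair follicle genes could be tested in 8 of 18, 4 higher and 1 lower, with sums of 14.6 to 33.5 CPM against 35.1 to 43.4 CPM, and without scaffold library 3 the calls fell to 3 in all. Nerve and Schwann cell genes were higher in 4 and lower in 2 of 10, beside 15.7% and 19.2% of all genes. That list's sum was lower in scaffold, 332 to 488 CPM against 1317 to 1494 CPM in lungs.

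Erythroid genes followed the lung, with 7 of 8 lower in scaffold and a median of -2.67. Hbb-bs, an adult beta globin, was at 985, 863 and 905 CPM in scaffolds and 16113, 11912 and 8683 CPM in lungs. The groups were 11.4-fold apart (log2 -3.51 ± 0.26 SE, adjusted p = 3.18e-07). Hba-a1, an alpha globin, was 6.27-fold lower. Of 13 genes of iron and haem handling 6 were higher and 2 lower. The haem-degrading enzyme Hmox1 was at 278, 208 and 144 CPM in scaffolds and 42.2, 36.6 and 37.7 CPM in lungs, 6.42-fold higher, the ferritin chain Fth1 was 3.02-fold higher, and the phagosomal metal transporter Slc11a1 21.0-fold. Hp, haptoglobin, was at 142, 204 and 83.0 CPM against 669.9, 801 and 696 CPM, 4.28-fold lower.

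Glycolysis and cell cycle genes were more often higher than lower in scaffold. Of 22 glycolysis and hypoxia response genes 14 were higher and 1 lower, with a median of 1.74 and summed levels of 2451 to 2532 CPM against 1105 to 1192 CPM. Aldoa, aldolase, which muscle also makes, was at 594, 682 and 707 CPM in scaffolds and 198, 213 and 214 CPM in lungs, 3.73-fold apart. Hk2, hexokinase 2, was 5.40-fold and Ldha, lactate dehydrogenase A, 2.91-fold higher. The member that was lower was Vegfa, given above with the vessels. Of 22 cell cycle genes 12 were higher and 0 lower (median 1.10). Top2a, which untangles replicated DNA, was at 157, 121 and 148 CPM against 67.5, 51.2 and 77.2 CPM, 2.56-fold apart, and the mitotic inhibitor of apoptosis Birc5 3.73-fold. The Mcm helicase genes and Pcna, the sliding clamp of replication, were not called, with Pcna at 47.8, 50.2 and 55.1 CPM against 36.4, 42.4 and 34.0 CPM, a fold of 1.60. When the fold itself was tested against 2, 5 cell cycle genes were called.

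Interferon-stimulated genes were higher in 11 and lower in 1 of 22, with a median of 0.84. Irf7, the amplifier of the type I response, was at 38.4, 40.9 and 26.6 CPM in scaffolds and 9.59, 8.11 and 6.96 CPM in lungs, 5.05-fold apart, and Rsad2, viperin, was 3.54-fold higher. Ifitm1 was the lower one, 3.81-fold. Immediate early genes went both ways, 4 higher and 6 lower of 18, beside 15.7% and 19.2% of all genes. Atf3, a stress factor, was at 135, 162 and 167 CPM against 6.45, 7.75 and 14.9 CPM, 18.6-fold higher, while Ier3 was 6.50-fold lower and Klf2, the shear stress factor of endothelium, 3.40-fold lower.

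Genes used to scale PCR were compared as well. Of 10 reference genes 2 were called higher in scaffold. Actb was at 6693, 6807 and 6807 CPM in scaffolds and 4831, 5262 and 5126 CPM in lungs, a fold of 1.57 that was not called. Gapdh was 4.35-fold higher, and B2m was called at a log2 difference of 1.08, a call lost with library totals in place of TMM (0.85). The 9 genes of the study's scaffold signature were chosen by the study on the scaffolds of this series, the Control ones included. Of them, 3 were called lower and 0 higher here, beside 19.2% and 15.7% of all genes. With library totals in place of TMM, 5 were lower. Every scaffold value lay above every lung value for 4 of the 9 and below for 5. Over all genes, 58.6% did not overlap. Fhl1 was at 14.7, 39.0 and 46.9 CPM in scaffolds and 511, 508 and 475 CPM in lungs, 12.7-fold lower, and Slc1a3, a glutamate transporter, was 4.14-fold lower. Of an earlier 10-gene scaffold signature, 8 genes could be tested, with 3 higher and 3 lower.

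Some reads may be shared between near-identical copies, so that Lyz1 and Lyz2, Hbb-bs and Hbb-bt, Hba-a1, Ear1 and the Stfa genes are uncertain. Of a list of 28 genes with paralogs, 12 were higher and 12 lower, with a median of -0.18. Gapdh and Eno1 have many processed pseudogenes, and their levels of 36.9 and 19.2 CPM in scaffold carry the same limit.

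The comparison was repeated in tumor-bearing mice, whose libraries are not used above. Scaffold against lung gave 8271 calls (40.4%; 19.8% higher and 20.7% lower) in 67NR mice, 6520 (32.7%; 14.6% and 18.1%) in 4T07 mice and 6799 (33.9%; 15.7% and 18.3%) in 4T1 mice. Of the 6919 genes called in Control mice, 5696 were called in the same direction in 67NR mice (82.3% of the Control calls and 68.9% of the 67NR calls) and 7 in the opposite direction. In 4T1 mice 5083 were called in the same direction (73.5% and 74.8%) and 31 in the opposite one. In 4T07 mice 3619 were (52.3% and 55.5%), and 216 went the opposite way, 209 of them higher in scaffold in Control mice. 67NR forms tumors that do not spread, 4T07 cells reach the lung without growing into large metastases in it, and 4T1 metastasizes, as the lines are commonly described.

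Genes of the implant and of the alveolus kept their side in all 4 groups of mice. The log2 difference of Gpnmb was 7.71 in Control, 7.17 in 67NR, 8.46 in 4T07 and 8.02 in 4T1 mice. That of Mmp12 was 7.84, 7.60, 8.79 and 8.44, and that of Col1a2 3.28, 3.61, 4.41 and 4.07. These 3 genes were called in each group. On the lung side, Sftpc was at -7.72, -6.94, -6.28 and -8.79, and Kdr at -3.48, -3.18, -1.83 and -3.33. Nkx2-1 averaged 0.177 CPM in the scaffolds of 67NR mice, 0.188 CPM with 4T07 and 0.114 CPM with 4T1. The giant cell list was higher in scaffold for 18 of 19 tested genes in 67NR mice, 17 of 18 in 4T07 mice and 19 of 19 in 4T1 mice, beside 19.8%, 14.6% and 15.7% of all genes.

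Whether the scaffold-lung difference itself changed was tested for 25093 genes in a fit of all 24 scaffold and lung libraries. The 3 tests share the 6 Control libraries, so they are not independent of each other. A change was called for 1 gene (0.00399%) in 67NR, 4145 (16.5%) in 4T07 and 254 (1.01%) in 4T1 mice, each against Control. In 4T07 mice 2164 (8.62%) were higher and 1981 (7.89%) lower, with a median of 0.13 over all genes, and in 4T1 mice 22 (0.0877%) were higher and 232 (0.925%) lower. The 22 became 11 without 4T1 scaffold library 35, 94 without 4T1 scaffold library 34 and 128 without a count filter. In 67NR mice 0 were higher and 1 lower, while 1945 genes had an unadjusted p under 0.05 and DESeq2 called 12. The 67NR count ran from 0 to 54 with 1 library left out (54 without Control lung library 6), and the 4T1 count was 164 without 4T1 lung library 38.

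Neutrophil and cell cycle genes showed lower scaffold-lung differences in mice with 4T07 tumors. Lungs of Control mice held 553, 545 and 521 CPM of the neutrophil list and those of 67NR mice 534, 542 and 502. The 3 lungs with 4T07 tumors held 29244, 30298 and 25115 CPM and the 3 with 4T1 tumors 25403, 29415 and 12502. Scaffolds held 9947, 3466 and 2994 CPM with 4T07 and 4199.7, 4561 and 3186 with 4T1 tumors, so every lung of both groups lay above every scaffold. Of 16 neutrophil genes, 11 had a lower difference in 4T07 and 9 in 4T1 mice than in Control. S100a8 went from 2.08 in Control to -2.46 in 4T07 and -2.95 in 4T1 mice, changes of -4.54 (adjusted p = 2.05e-05) and -5.06 (adjusted p = 4.03e-05) in edgeR. Cell cycle genes had a lower difference in all 22 of 22 in 4T07 mice, where the list summed to 4982, 5212 and 3673 CPM in lungs and 1861, 659 and 622 CPM in scaffolds, beside 331 to 387 CPM in Control lungs. Scaffold library 22 was the high one of its 4T07 group in both lists.

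Alveolar epithelial and lung capillary lists had smaller scaffold-lung differences in 4T07 mice. Among airway genes, a change was called for 2 of 12 club and secretory cell genes and 0 of 12 ciliated cell genes. Their summed levels were lower in 4T07 lungs all the same. The club and secretory list summed to 4716 to 13568 CPM in 4T07 lungs and 18512 to 25653 CPM in Control lungs. The ciliated list summed to 348 to 897 CPM and 1726 to 2323 CPM, and 6 of its 12 genes were at the floor in Control scaffolds. The alveolar type 2 list summed to 7246, 4566 and 8739.7 CPM in 4T07 lungs and 32779.5, 29768 and 29015 CPM in Control lungs, and 10 of 16 genes had a difference closer to 0. The difference was higher than in Control mice for 16 of 18 lung capillary genes, 9 of 14 type 1 cell genes and 13 of 23 basement membrane genes. The capillary list summed to 2027 to 3832 CPM in 4T07 lungs and 7791 to 8662 CPM in Control lungs. Kdr changed by 1.66 (adjusted p = 1.41e-05). The median of the interstitial matrix list moved further from 0, with a higher difference in 21 and a lower one in 3 of 40 and a median of 3.34 in 4T07 beside 2.12 in Control mice. Col1a2 went from 3.28 in Control to 4.41 in 4T07 mice (adjusted p of the change = 0.00316), with 236 CPM in 4T07 lungs and 443 CPM in Control lungs. In 4T1 lungs the type 2 list summed to 22809, 20216 and 26179.7 CPM, and 1 of its genes passed. Chemokines had a lower difference in 15 and a higher one in 3 of 31 in 4T07 mice: Ccl8 was at 39.5 CPM in 4T07 lungs beside 4.15 CPM in Control lungs, and its difference changed by -3.99 (adjusted p = 3.5e-07). CPM are shares of a library, the neutrophil list alone took the sums given above, and its part in the other changes was not tested.

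**Figure D4:**
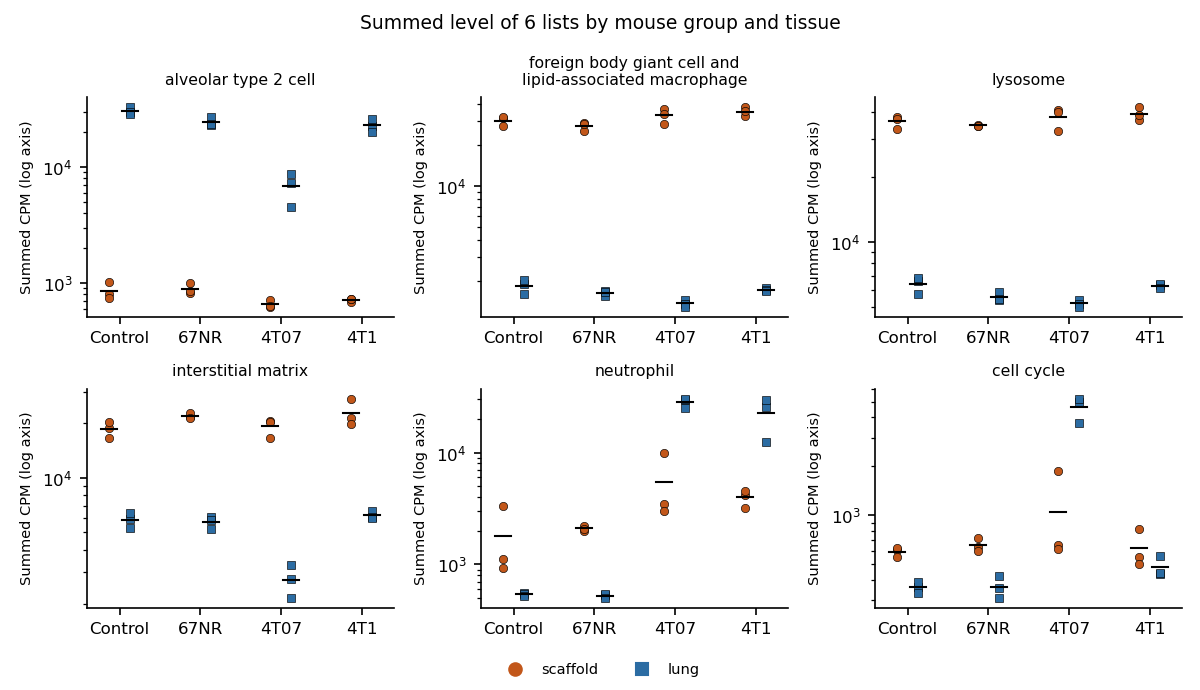
Summed CPM (log axis) of 6 gene lists in scaffold (circles) and lung (squares) libraries of Control, 67NR, 4T07 and 4T1 mice, n = 3 each, with a bar at the mean. Giant cell and lysosome lists stay higher in scaffold in all 4 groups, while the neutrophil list is higher in lung in 4T07 and 4T1 mice and the cell cycle list is higher in lung in 4T07 mice alone.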

How the data were processed

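RNA was made into 3′ tag libraries (QuantSeq) and sequenced, and the deposited table holds whole-number counts per gene symbol that the authors did not normalize. The submitters' processing notes name Trim Galore 0.5.0, STAR 2.6.0 and featureCounts. The genome build is not given in the sources used here. The 120 lines repeating a symbol were summed, leaving 55367 symbols. Genes with more than 10 counts over the libraries compared were fitted with edgeR 4.0.16 (TMM, quasi-likelihood F test, Benjamini-Hochberg adjustment) in R 4.3.3, tissue being the only term, and called at an adjusted p under 0.10 with a fold above 2, the study's thresholds. DESeq2 1.42.0 was an alternative. Differences between mouse groups were interaction terms over 24 libraries. The fits were tested on simulated data with far fewer changed genes than were called here, so that test does not check the scaling. CPM used library totals, so that fitted folds lie about 0.23 (log2) above ratios of plain CPM.

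Named genes were the 12 largest non-overlapping differences in each direction with at least 50 CPM, the 12 most abundant genes of each tissue, the 3 most abundant and the 3 most changed members (at least 5 CPM) of each of 48 lists in each direction, and the 3 largest differences between mouse groups in each direction. Of these, 2 genes are not reported here. The comparison, lists and members were chosen with earlier results of these data known. Promoters and coordinates are RefSeq entries of GRCm38.p6.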

Additional observations from a re-analysis of the deposited data

Results flagged for a closer look

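The scaffold-lung difference itself differed from that of Control mice for 1 gene in 67NR, 4145 genes in 4T07 and 254 genes in 4T1 mice, by an interaction test in edgeR, and these tests share the Control libraries. Of the named genes, 1, 120 and 25 were among them. The 67NR gene was Ada, adenosine deaminase, whose log2 difference was 3.96 in Control and 0.16 in 67NR mice, a change of -3.85 (adjusted p = 0.0985). It was at 2.11, 22.4 and 34.1 CPM in 67NR lungs and 1.74, 0.541 and 2.27 CPM in Control lungs, so that 67NR lung library 13 lay within the Control range. The call was lost at an adjusted p under 0.05 and in 8 of 12 fits leaving out 1 library.

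Among genes with a mean of at least 5 CPM in 1 of the groups involved, the largest rises in 4T07 mice were those of Riiad1 (6.02), Cstdc2 (6.00) and Cfap53 (5.88), and the largest falls those of Reg1 (-8.34), Stfa3 (-7.32) and H3c8 (-7.12), all on the log2 scale. Cstdc2 had no count in Control scaffolds and a count in 1 of 3 4T07 scaffolds, library 22, without which its change was 3.44 and no longer called. Reg1 averaged 76.6 CPM in Control scaffolds and 21.3 CPM in 4T07 scaffolds, and 0.118 CPM in Control lungs and 11.4 CPM in 4T07 lungs. Stfa3, a stefin of neutrophils, averaged 86.4 CPM in 4T07 lungs and 0.286 CPM in Control lungs.

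By the same rule, in 4T1 mice Ear1 (5.91), Cfap53 (5.36) and Cyp2e1 (2.96) rose the most, and Stfa3 (-8.78), Wfdc18 (-8.67) and Ceacam10 (-7.47) fell the most. Ear1 averaged 2.64 CPM in 4T1 and 0.0525 CPM in Control scaffolds, and 17.6 and 31.6 CPM in the lungs. Wfdc18 averaged 8.52 CPM in 4T1 scaffolds and was at 9.65, 4.43 and 66.3 CPM in Control scaffolds, of which library 3 was high, and it averaged 2.66 CPM in 4T1 lungs with no count in Control lungs. Its call was lost without Control lung library 5 or 6 or 4T1 lung library 38. The call of Cyp2e1 was lost at an adjusted p under 0.05 and in 8 of 12 fits leaving out 1 library, and that of Cfap53 without Control scaffold library 2 or 4T1 scaffold library 35. Where a group is at or near 0 counts, these fitted values depend on the prior count.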

How the results depend on the processing

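The 6919 calls between Control scaffold and lung were within 1.5 times that number under every alternative but 1 (6223 with DESeq2, 6358 to 6795 with 1 library left out, 4794 with the fold itself tested against 2). With at least 10 counts required in every library, which removes genes absent from a tissue, 3045 of 11716 genes were called, and 3797, 3063 and 3084 in 67NR, 4T07 and 4T1 mice, where leaving out 1 library gave 7608 to 8010, 5835 to 6634 and 6115 to 6787. For 67NR minus Control the count was 0 at an adjusted p under 0.05, 12 with DESeq2, 4 with DESeq2 size factors, 4 with library totals, 281 without a filter, 0 with 10 counts in every library and 0 to 54 with 1 library left out, so that a count near 0 there is not stable. For 4T07 minus Control it was 2525 with 10 counts in every library and 3282 to 4774 with 1 library left out. For 4T1 minus Control it was 560 without a filter and 164 to 377 with 1 library left out, 164 without lung library 38. The cause was not tested.

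With library totals in place of TMM, Clec3b (-0.034), Cyp2e1 (-0.16), Ncr1 (-0.15) and Postn (-0.013) turned sign, as did Cyp2e1 at equal depth (-0.076). Leaving out 1 library, the log2 difference ran from -0.76 (without scaffold library 3) to 0.50 for Cyp2e1, which was also -0.25 without lung library 4, and from -0.030 to 0.17 for Ncr1. Of the named genes reported, 13 calls were lost and 9 gained over all fits leaving out 1 library, and calls of named tumor group differences were lost 22 times. No paired analysis was possible because the labels do not tie a scaffold to the lung of the same mouse and every library has a number of its own. Counts of 3 or fewer limit what can be said of genes absent from a tissue.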
